A study of Mus musculus with 6 samples.

Results

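The insulin-like growth factors Igf1 and Igf2, the binding proteins Igfbp1 to Igfbp7 and Igfals, the acid-labile subunit, were examined in pancreatic islets of 2 obese mouse strains. These 10 genes were chosen by name, and every non-control probe that carries one of the names on the array was taken, which gave 18 of 41174 probes and 10 of 27827 gene names. The ligands are small secreted proteins that act through the receptor Igf1r to promote growth and survival, while Igf2r takes Igf2 into the cell for degradation. Binding proteins hold most of the ligand outside cells and thereby limit or prolong its action, and the acid-labile subunit, made mainly by the liver, joins a ligand and Igfbp3 or Igfbp5 into a stable complex in blood. In the pancreas Igf2 is best known from development, and Igf1 and several binding proteins are known from stromal cells, vessels and macrophages.

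Islets of NZO/HiBomDife mice (NZO), labelled diabetes-prone, were compared with islets of C57BL/6.V-Lepob/ob mice (B6-ob/ob), which carry the ob allele of leptin and are labelled diabetes-resistant. All mice were male, had been fed a high-fat diet free of carbohydrate to an age of 18 weeks, and were sampled 48 h after carbohydrate was added. Each strain has 3 samples with 1 array for each, numbered 10, 11 and 12 for NZO and 4, 5 and 6 for B6-ob/ob, and islets taken before carbohydrate was given are not analysed here. Whether a sample is 1 mouse or pooled mice is not in the labels. The p-values therefore rest on the spread among these samples alone, which may be technical. The ob allele and the rest of the strain background cannot be told apart.

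Signed values are NZO less B6-ob/ob, with the strain as each scanner file is labelled. They oppose the deposited value table, whose 6 columns each follow a scanner array labelled with the opposite strain. Which labels are right is not stated in the sources used here. Every direction given in this report therefore rests on the labels of the scanner files. The Igf1 probe A_51_P147942, for example, stood in that table at 5.20, 15.3 and 7.84 in the columns labelled NZO 10, 11 and 12 and at 49.1, 45.7 and 55.4 in those labelled B6-ob/ob 4, 5 and 6. On each array 23621 to 24710 probes of 41174 exceeded background clearly (well above background, as the scanner software marks it) and none was saturated. Precision is limited by having 3 arrays a strain.

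Endocrine markers lay at similar summed signals in both strains, while most acinar and stromal markers were higher in NZO. Of 13 endocrine markers tested, Nkx6-1 alone passed the test, as lower, and their summed signal, relative to each array's 75th percentile, was 4050 to 4650 in NZO and 3970 to 4740 in B6-ob/ob. By the limma test described below, 13.2% of all genes were higher in NZO and 8.92% lower. Among stromal markers (stellate cell, pericyte and fibroblast genes) 13 of 14 were higher, with a summed signal of 79.3 to 88.6 in NZO and 20.4 to 34.2 in B6-ob/ob. All 12 acinar markers tested were higher (1500 to 2130 against 206 to 715), as were 6 of 11 macrophage markers (21.8 to 44.7 against 10.7 to 13.7) and 3 of 12 endothelial markers (86.6 to 103 against 74.5 to 77.8). Of 10 ductal markers 6 were higher, although the sums overlapped (168 to 239 against 90.3 to 267). Muc1 and Cftr among them, and the stromal Pdgfra, were well above background on 3 of 6 arrays. That is the fewest for a tested probe, as given below, and such a filter can favour a difference. In bulk islets a larger number of cells of a type and more RNA per cell cannot be told apart. In cell cycle markers B6-ob/ob replicates 4 and 5 stood apart, with mean levels of 1.39 and 0.72 against -3.35 on replicate 6 and -2.15 to -1.85 on the NZO arrays.

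The probes are 60-base oligonucleotides, and the sequences below, copied from the scanner files and written 5′ to 3′, are among those on which the differences or the disagreements between probes of a gene rest. Positions follow the scanner files, on mm9, and the exon or other transcript part under a probe is not in the files. Where a reading frame is marked, it has no stop codon before its last codon. In the Igf1, Igfbp3 and Igfbp4 probes capitals mark TGC and TGT codons of the third frame, which encode the cysteines whose bonds hold ligands and binding proteins in shape. In the Igfbp2 probe they mark a TAA stop codon that ends the first frame, and in the Igfals probe the leucine codons of the third frame. Igfals is a protein of leucine-rich repeats, and 6 of the 19 codons of its probe encode leucine. Of the Igf1 probe A_51_P147942 and both Igfbp5 probes only the first 30 bases are shown, with no base marked.
Igf1 A_52_P536434, chr10:87376418-87376477: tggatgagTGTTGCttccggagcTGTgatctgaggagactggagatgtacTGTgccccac
Igf1 A_51_P147942, chr10:87393516-87393575: cgcaggatcctttgctgcttgagcaacctg
Igfbp2 A_51_P423308, chr1:72898677-72898736: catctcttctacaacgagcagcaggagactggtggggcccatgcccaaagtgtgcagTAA
Igfbp3 A_51_P228472, chr11:7108469-7109478: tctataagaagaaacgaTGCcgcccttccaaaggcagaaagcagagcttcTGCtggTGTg
Igfbp4 A_51_P398971, chr11:98909591-98909650: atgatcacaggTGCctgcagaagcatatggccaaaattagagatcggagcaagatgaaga
Igfbp5 A_52_P281702, chr1:72904829-72904888: cacatcacatattactgtagctctctatag
Igfbp5 A_51_P204153, chr1:72907366-72907425: aatagaattttccttggtgtctcccatcta
Igfals A_51_P277088, chr17:25018251-25018310: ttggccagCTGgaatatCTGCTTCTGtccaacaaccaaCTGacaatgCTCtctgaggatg

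The Igfbp3 probe A_51_P228472 is placed over 1010 bases, more than its 60 letters. The Igf2 probe A_51_P516826 is placed over 37 bases. Of the 18 probes 13 are tied by a RefSeq accession to the same symbol in the RefSeq table, and the other 5 keep the name of the files. In the gene order of that table (GRCm38.p6) Igfbp2 and Igfbp5 are neighbours on chromosome 1, Igfbp1 and Igfbp3 on chromosome 11, and Igf2 lies next to Ins2 on chromosome 7.

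Among the measured genes Igf1, Igfbp2, Igfbp4, Igfbp5 and Igfbp6 were higher in NZO islets and Igfals was lower, while Igf2, Igfbp3 and Igfbp7 did not pass the test. A probe was tested if it was well above background on at least 3 of the 6 arrays, which held for 14 of the 18 probes and left Igfbp1 without a tested probe. By limma with Benjamini-Hochberg adjustment over 24628 probes and a threshold of 0.05, 7 of the 14 probes were higher and 1 was lower. Among all tested probes 11.5% were higher and 10.3% were lower (21.8% in all). The Igfbp2 probe entered the test only through the NZO arrays, where it is bright, and such a filter favours a difference. Of the 9 probes well above background on all 6 arrays 3 were higher, those of Igf1, Igfbp4 and Igfbp5, and 1 was lower. The strains did not overlap at 8 probes that were higher in NZO and 1 that was lower, against 18.6% and 22.4% of all tested probes (41.0% in either direction).

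**Figure D1:**
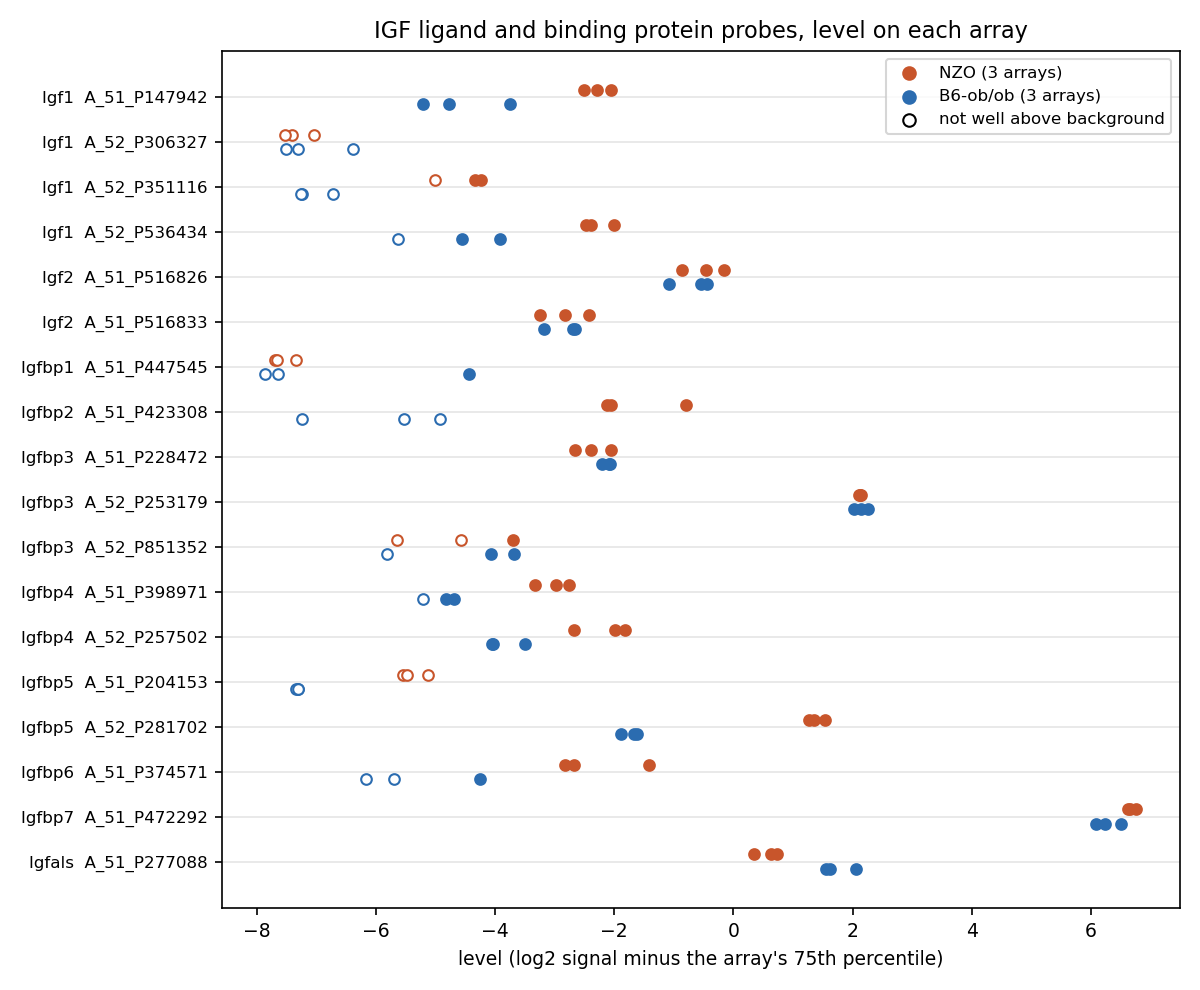
Level of each of the 18 probes on each array, in log2 of the signal minus the array's 75th percentile, with open circles where a probe was not well above background. The 3 NZO arrays lie apart from and above the B6-ob/ob arrays at the probes of Igfbp2, Igfbp4, Igfbp5, Igfbp6 and Igfbp7 and at 3 of the 4 Igf1 probes, and below them at Igfals.

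Of the ligands, Igf1 was several times higher in NZO. Its probe A_51_P147942, averaged over repeated spots, gave signals of 76.1, 70.65 and 98.05 on NZO arrays 10, 11 and 12 and of 27.4, 16.6 and 11.9 on B6-ob/ob arrays 4, 5 and 6. The strains did not overlap, and replicate 4 was the highest of the B6-ob/ob arrays. After log2 and subtraction of the 75th percentile of its array, called the level from here on, this was -2.28 ± 0.22 (SD, n = 3) for NZO against -4.57 ± 0.75 for B6-ob/ob. The difference in level was 2.29 with a standard error of 0.37 and a 95% interval of 1.39 to 3.19, or 4.90-fold (limma adjusted p = 0.00766).

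A second Igf1 probe, A_52_P536434, lies 17038 bases away and is assigned to transcript variant 2. It read 78.25, 65.45 and 102 in NZO and 24.5, 19.2 and 8.96 in B6-ob/ob, where replicate 6 was not well above background. Its difference in level was 2.41 (SE 0.42, limma adjusted p = 0.0102), and over the 6 arrays its level followed that of the first probe with a Pearson's r of 0.99, which the strain difference they share sets in large part. The other two Igf1 probes were not tested. A_52_P351116 read 22.9, 10.6 and 20.4 in NZO, with replicate 11 not well above background, and 3.50, 3.01 and 2.89 in B6-ob/ob, all below it. By mean level it was 1.89-fold higher in NZO, with B6-ob/ob signals raised to the lowest one well above background on their array. A signal already above that was kept, and the fold allows for no spread among arrays. Raising signals makes such a fold smaller than the signals as read would give, so it is no estimate of the size. A_52_P306327, made to a liver tumour cDNA clone, was well above background on none of the 6 arrays. Macrophage, stromal and acinar markers were higher on the same arrays, and their part in the Igf1 difference was not tested.

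Igf2, the ligand of fetal growth, lay at similar levels in both strains. Its probe A_51_P516826 gave signals of 314, 188 and 368 on NZO arrays 10, 11 and 12 and of 271, 215 and 300.2 on B6-ob/ob arrays 4, 5 and 6. The ranges overlapped, with NZO replicate 11 the lowest of the 6 arrays and NZO replicate 12 the highest. The difference in level was 0.20 with a 95% interval of -0.40 to 0.79 (limma adjusted p = 0.62). The other Igf2 probe, A_51_P516833, lies 405 bases away and differed by 0.01, with an interval of -0.60 to 0.62 (limma adjusted p = 0.983).

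Repeated spots show how far one array fixes a value. The Igf1 probe has 10 spots an array, and their coefficient of variation was 4.10% to 6.12% on the NZO arrays. On the dimmer B6-ob/ob arrays it was 11.3%, 11.5% over 9 unflagged spots, and 26.5% on replicate 6, where 7 of 10 spots were well above background. For the Igf2 probe it was 3.32% to 8.28% over all arrays.

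**Figure D2:**
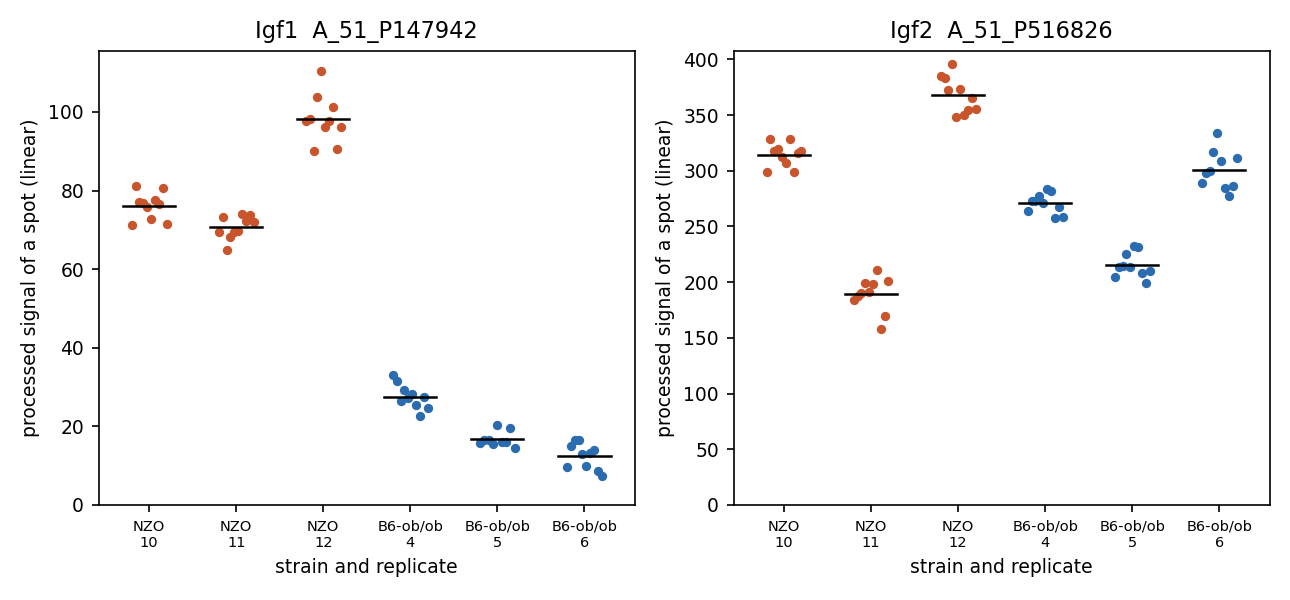
Processed signal of single spots (linear scale) of the Igf1 probe A_51_P147942 and the Igf2 probe A_51_P516826 on each array, with a line at the mean. For Igf1 every NZO spot, from 64.8 to 110.4, lies above every B6-ob/ob spot, of which the highest is 33.0, and for Igf2 the arrays of the strains interleave.

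Igfbp5, a matrix-bound binding protein, had the smallest spread between arrays of a strain among the members that rose. Its probe A_52_P281702 gave signals of 1261, 874 and 989 on NZO arrays 10, 11 and 12 and of 120, 124 and 138 on B6-ob/ob arrays 4, 5 and 6. Every NZO array lay several times above every B6-ob/ob array. The level was 1.39 ± 0.14 (SD, n = 3) for NZO against -1.72 ± 0.14 for B6-ob/ob, 3.11 apart (SE 0.13), or 8.65-fold (limma adjusted p = 0.000107). Its unadjusted p ranked 51 among the 24628 probes tested. The second Igfbp5 probe, A_51_P204153, placed 2477 bases away, was well above background on no array, so it gives no fold. Its signals of 9.30, 7.67 and 11.7 in NZO were nevertheless all above the 2.31, 2.81 and 2.78 of B6-ob/ob.

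Igfbp2, a binding protein that prefers Igf2 and is the neighbour of Igfbp5 in the genome, was measured in NZO only. Its probe gave 99.8, 81.9 and 238 on NZO replicates 10, 11 and 12, with replicate 12 the highest. On B6-ob/ob replicates 4, 5 and 6 it gave 8.01, 14.8 and 2.93, none well above background. With B6-ob/ob signals raised in the same way as for Igf1 A_52_P351116, Igfbp2 was 12.4-fold higher in NZO by mean level. The fold is lowered by this raising, and it allows for neither the spread of the NZO arrays nor the background correction. The level was -1.66 ± 0.75 (SD, n = 3) against -5.90 ± 1.19 for B6-ob/ob signals not well above background (limma adjusted p = 0.00647).

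Igfbp4, which mostly restrains ligand action and is cut by the protease Pappa, was higher in NZO by both of its probes. A_52_P257502 gave signals of 109, 53.3 and 117 on NZO arrays 10, 11 and 12 and of 32.5, 27.5 and 26.5 on B6-ob/ob arrays 4, 5 and 6. The lowest NZO array, replicate 11, still lay above all B6-ob/ob arrays. The level was -2.16 ± 0.46 (SD, n = 3) against -3.87 ± 0.32, 1.71 apart (SE 0.28), or 3.26-fold (limma adjusted p = 0.00754). A_51_P398971, 3683 bases away, differed by 1.88 (SE 0.21, limma adjusted p = 0.0021), and 2 of the 3 B6-ob/ob arrays measured it well above background.

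Igfbp6, another binding protein with a preference for Igf2, was also higher in NZO. Its probe gave 60.8, 53.4 and 153.5 on NZO replicates 10, 11 and 12. On B6-ob/ob replicates 4, 5 and 6 it gave 19.35, 8.80 and 6.16, and only replicate 4 was well above background. The strains did not overlap, and NZO replicate 12 was the highest array here as for Igfbp2. The level was -2.31 ± 0.78 (SD, n = 3) against -5.37 ± 0.99, 3.06 apart (SE 0.59, limma adjusted p = 0.0141). The call ended when B6-ob/ob replicate 5 was left out, at a difference of 2.90 (adjusted p = 0.0603), and with each other array left out in turn the adjusted p was 0.00508 to 0.0405.

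Stromal and acinar markers were higher on the arrays where Igfbp2, Igfbp4, Igfbp5 and Igfbp6 were higher, and their part in these differences was not tested. The size of the differences at dim probes depended on the background correction. Under normexp with an offset of 50, which raises dim signals, followed by quantile normalisation, the difference was 0.82 at both Igf1 probes, 1.33 at Igfbp2, 0.71 and 0.51 at the Igfbp4 probes A_52_P257502 and A_51_P398971, and 1.00 at Igfbp6. At Igfbp5, the brightest of these, it was 2.54. All kept an adjusted p under 0.05.

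Igfbp3, the main carrier of ligand in blood, gave no difference that passed. Its bright probe A_52_P253179 gave signals of 1913, 1489 and 1767 on NZO arrays 10, 11 and 12 and of 1766, 1999 and 1794 on B6-ob/ob arrays 4, 5 and 6. The difference in level was -0.02 with a 95% interval of -0.29 to 0.26 (limma adjusted p = 0.929), the narrowest interval among the 14 tested probes. The probe A_51_P228472 differed by -0.24, with an interval of -0.66 to 0.18 (limma adjusted p = 0.384). The third, A_52_P851352, made to a cDNA clone and measured on 1 NZO and 2 B6-ob/ob arrays, differed by -0.12 with an interval of -1.79 to 1.56. The levels of these probes did not follow each other over the 6 arrays, with Pearson's r of 0.19, 0.20 and -0.79.

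Igfbp7, a low-affinity member known from vessels, was bright on all 6 arrays. It gave signals of 47050, 34630 and 40230 on NZO arrays 10, 11 and 12 and of 33560, 34310 and 29850 on B6-ob/ob arrays 4, 5 and 6. After scaling, the levels of 6.76, 6.66 and 6.62 in NZO lay above the 6.51, 6.24 and 6.08 of B6-ob/ob. The difference in level was 0.40 with a standard error of 0.14 and did not pass (limma adjusted p = 0.0997). Without B6-ob/ob replicate 4 it was 0.52 and passed (adjusted p = 0.0445), as it did with array weights, at 0.45 (adjusted p = 0.0111). With array weights 42.4% of all tested probes were called in either direction, against 21.8% without them.

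Igfbp1, a binding protein known for its control by insulin in the liver, was well above background on 1 of 6 arrays. That was B6-ob/ob replicate 4, with a signal of 17.15, against 1.90 to 2.28 on the other 5 arrays. The value table holds 18.5 for this probe in the column that follows this array and 2.17 in each of the other 5. At the neighbouring Igfbp3 the bright probe had levels of 2.26, 2.14 and 2.03 on the B6-ob/ob arrays 4, 5 and 6, and the dim A_52_P851352 had -5.81, -4.07 and -3.68, with replicate 4 not well above background.

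Igfals was lower in NZO, the single member that fell. Its probe gave signals of 673, 434 and 680.1 on NZO arrays 10, 11 and 12 and of 1130, 1326 and 1830 on B6-ob/ob arrays 4, 5 and 6. All B6-ob/ob arrays lay above all NZO arrays. The level was 0.57 ± 0.20 (SD, n = 3) for NZO against 1.74 ± 0.28 for B6-ob/ob, which differ by -1.17 (SE 0.19, limma adjusted p = 0.00719). Of 4 tested liver markers, Alb was higher in NZO by 3.41 (limma adjusted p = 0.000212), and Ahsg, well above background on 3 of 6 arrays, was called higher too. Fgb differed by 1.70 (adjusted p = 0.219) and Apoa2 by -0.34 (0.495). The summed signal of the list was 1.88 to 2.12 in NZO and 0.308 to 1.09 in B6-ob/ob. Cps1, a liver enzyme, was well above background on no array, and the part of these markers in the Igfals result was not tested.

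**Figure D3:**
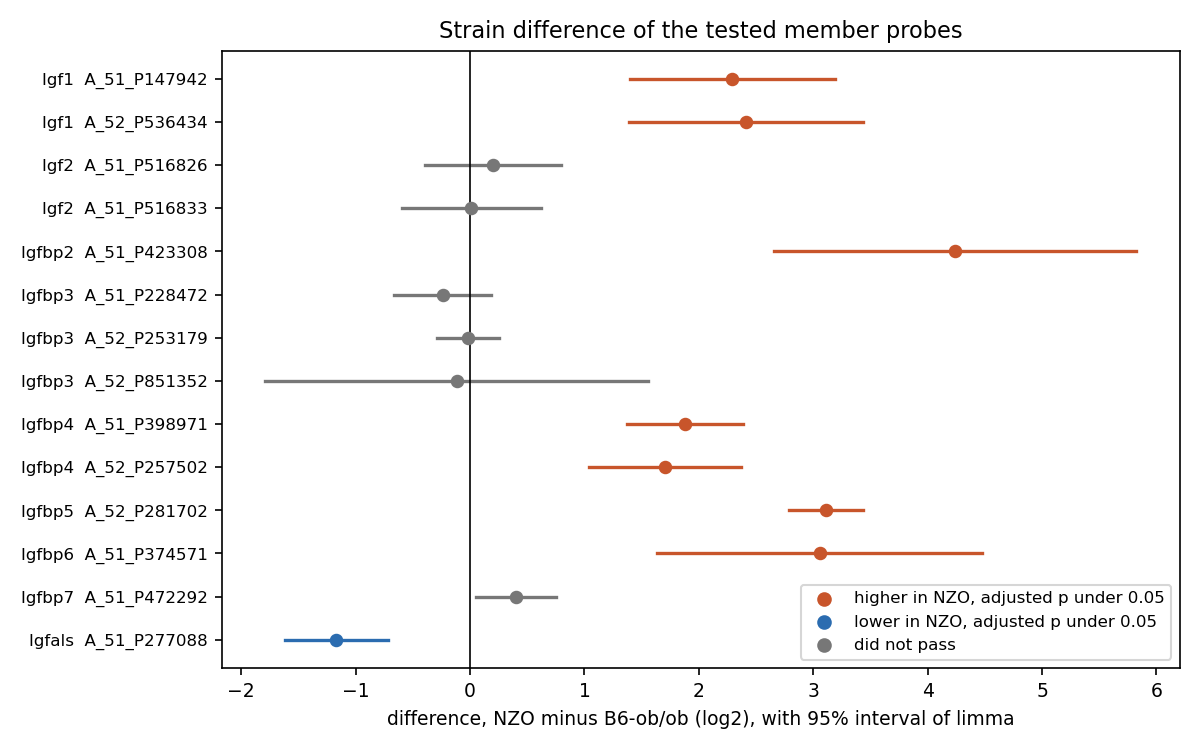
Difference in level, NZO minus B6-ob/ob on the log2 scale, of the 14 tested probes with the 95% interval from limma. The intervals of the 7 probes that rose and of Igfals, which fell, lie clear of 0, those of Igf2 and Igfbp3 span it, and that of Igfbp7 runs from 0.05 to 0.75 without passing after adjustment.

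Arrays came from 3 slides, and 2 of these held both strains. Within slide 2, with 1 array of each strain, the difference in level was 1.24 at the Igf1 probe A_51_P147942, 3.41 at Igfbp2, 1.51 at the Igfbp4 probe A_52_P257502, 3.17 at the bright Igfbp5 probe, 1.42 at Igfbp6 and -0.98 at Igfals. Within slide 3, with 1 NZO and 2 B6-ob/ob arrays, these were 2.71, 4.02, 1.37, 3.13, 3.24 and -1.46 in the same order. All 6 probes kept their direction within both slides. The Igfbp2 values, and that of Igfbp6 within slide 3, are set against B6-ob/ob signals not well above background and give no reliable size. With slide as a fixed block the differences were 2.08 at that Igf1 probe, 3.76 at Igfbp2 and 1.43 at Igfbp4. They were 3.14 at Igfbp5, 2.46 at Igfbp6 and -1.25 at Igfals, and all passed (limma adjusted p from 0.00311 to 0.0391). Slide 1 held NZO replicate 12 alone, so in this fit that array adds nothing to the strain difference. The Igfbp2 and Igfbp6 values of this fit give no reliable size either.

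The receptors and adaptors that carry the IGF signal into the cell gave no call. Of 10 listed genes 9 were tested, and none was higher and none was lower by limma after adjustment. At an unadjusted limma p under 0.05, 2 were higher and 2 lower. Many of all tested probes reached such a p. The Igfbp7 probe, at an unadjusted limma p of 0.0299, ranked 7371 among the 24628 probes tested. After adjustment, 13.2% of all genes, each at its brightest tested probe, were higher and 8.92% lower (22.1% in all). Igf1r, the signalling receptor, differed by 0.21 at its brightest probe, with levels of 0.67, 0.74 and 1.13 in NZO and 0.38, 0.59 and 0.94 in B6-ob/ob (limma adjusted p = 0.506), and its other probes by 0.26, 0.15 and -0.26. Igf2r, the clearance receptor, differed by 0.23 (adjusted p = 0.258), the insulin receptor Insr by 0.24 (adjusted p = 0.545) and the adaptor Irs1 by 0.59 (adjusted p = 0.0834). No probe carries the name Irs2. The list's median difference was 0.22, against -0.03 over all genes. Without B6-ob/ob replicate 6 Irs1 was called higher, at 0.80 (adjusted p = 0.0127), and under median scaling Grb14, an adaptor that inhibits the receptor, was called lower, at -0.45 (adjusted p = 0.0463).

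Of the genes whose products cut binding proteins, or inhibit that cutting, 12 were tested, 7 were higher in NZO and none was lower, against 13.2% and 8.92% of all genes. The median difference was 1.61. Where only probes well above background on all 6 arrays were kept, 3 were higher, those of Htra1, Plat and Adam9. Pappa2, Stc1 and Ctsd were kept too and did not pass. Of all probes kept in this way 20.8% were called in either direction. In the main test the members that did not pass were Plau, Adam28, Pappa2, Stc1 and Ctsd. Pappa, the protease that cuts Igfbp4, stood at levels of -3.03, -3.88 and -3.25 in NZO. It was not well above background on any B6-ob/ob array. With B6-ob/ob signals raised as for Igfbp2, it was 4.18-fold higher in NZO by mean level. As Pappa entered the test through the NZO arrays alone, the filter favoured a difference. Stc2, a secreted inhibitor of Pappa, stood at 0.82, 0.83 and 0.96 in NZO and at -4.16, -4.99 and -6.00 in B6-ob/ob, where 1 array was well above background. It was called higher (limma adjusted p = 0.000503), and its fitted difference of 5.92 rests in part on signals not well above background, while its relative Stc1 differed by 0.29 (adjusted p = 0.478). The matrix proteases Mmp2 and Mmp7 were called higher with fitted differences of 4.01 and 3.85, under the same limit, since each was measured on 1 B6-ob/ob array. The serine protease Htra1 was higher by 1.76, the plasminogen activator Plat by 1.39 and the membrane protease Adam9 by 0.39. Adam9 lost its call without any one of the 6 arrays (adjusted p from 0.0517 to 0.16), with slide as a fixed block (0.128), under quantile normalisation (0.0658) or median scaling (0.123), in the value table (0.0652) and with no filter on dim probes (0.104). Pappa2, a relative of Pappa that cuts Igfbp5, differed by 0.41 (adjusted p = 0.462), and the lysosomal protease Ctsd by -0.08 (adjusted p = 0.794).

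Of the secreted proteins that carry a domain related to the binding proteins 9 were tested, 6 were higher in NZO and none was lower, against 13.2% and 8.92% of all genes. The median difference was 1.11. Wisp2, with no B6-ob/ob array well above background, was 2.64-fold higher by mean level with B6-ob/ob signals raised as for Igfbp2. It entered the test through the NZO arrays alone, a filter that favours a difference. The others were Htra3 at 3.03, Wisp1 at 1.88, the matrix-linked growth regulators Cyr61 at 1.27 and Ctgf at 1.11, and Crim1 at 0.99. Ctgf lost its call when B6-ob/ob replicate 5 was left out, at 1.08 (limma adjusted p = 0.0514). The second Crim1 probe differed by 0.23 (limma adjusted p = 0.66), and the second Htra3 probe was higher by 0.88. Esm1, known from endothelium, differed by -0.37 (adjusted p = 0.362), Kazald1 by -0.27 (0.311) and Nov by 0.46 (0.342). The stromal markers given above were higher on the same arrays as both of these lists, and their part was not tested.

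Of 6 tested genes that carry the growth hormone signal, which drives Igf1 in liver, 1 was higher and none was lower, a share near the 13.2% and 8.92% of all genes. The gene called was Cish, a feedback inhibitor induced by Stat5, at levels of 3.07, 3.38 and 3.44 in NZO and 2.17, 0.54 and 1.12 in B6-ob/ob, a difference of 2.02 (limma adjusted p = 0.0158). Its call ended with slide as a fixed block, at 1.84 (adjusted p = 0.0632), and without NZO replicate 11 or 12 (0.0596 and 0.0536). The growth hormone receptor Ghr differed by 0.13 at its brightest probe (adjusted p = 0.535), with its other 4 probes between -0.57 and 0.44. Of 7 genes that regulate Igf2 RNA 3 were tested, and none passed by limma after adjustment. All 3 were higher at an unadjusted p under 0.05, which many of all tested probes reached, as given above for the receptors. H19, the imprinted RNA that shares enhancers with Igf2, differed by 1.92 at its brightest probe (adjusted p = 0.114), with 1 B6-ob/ob array well above background. The other H19 probe differed by 0.79 (limma adjusted p = 0.0836), with no B6-ob/ob array well above background. B6-ob/ob replicate 4 had the highest level of its strain at the brightest H19 probe, -4.50 against -6.31 and -7.49. Without this replicate that probe was called higher (adjusted p = 0.00903), with no B6-ob/ob array left that measured it. Igf2bp2 was called higher there too, at 1.09 (0.0328).

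**Figure D4:**
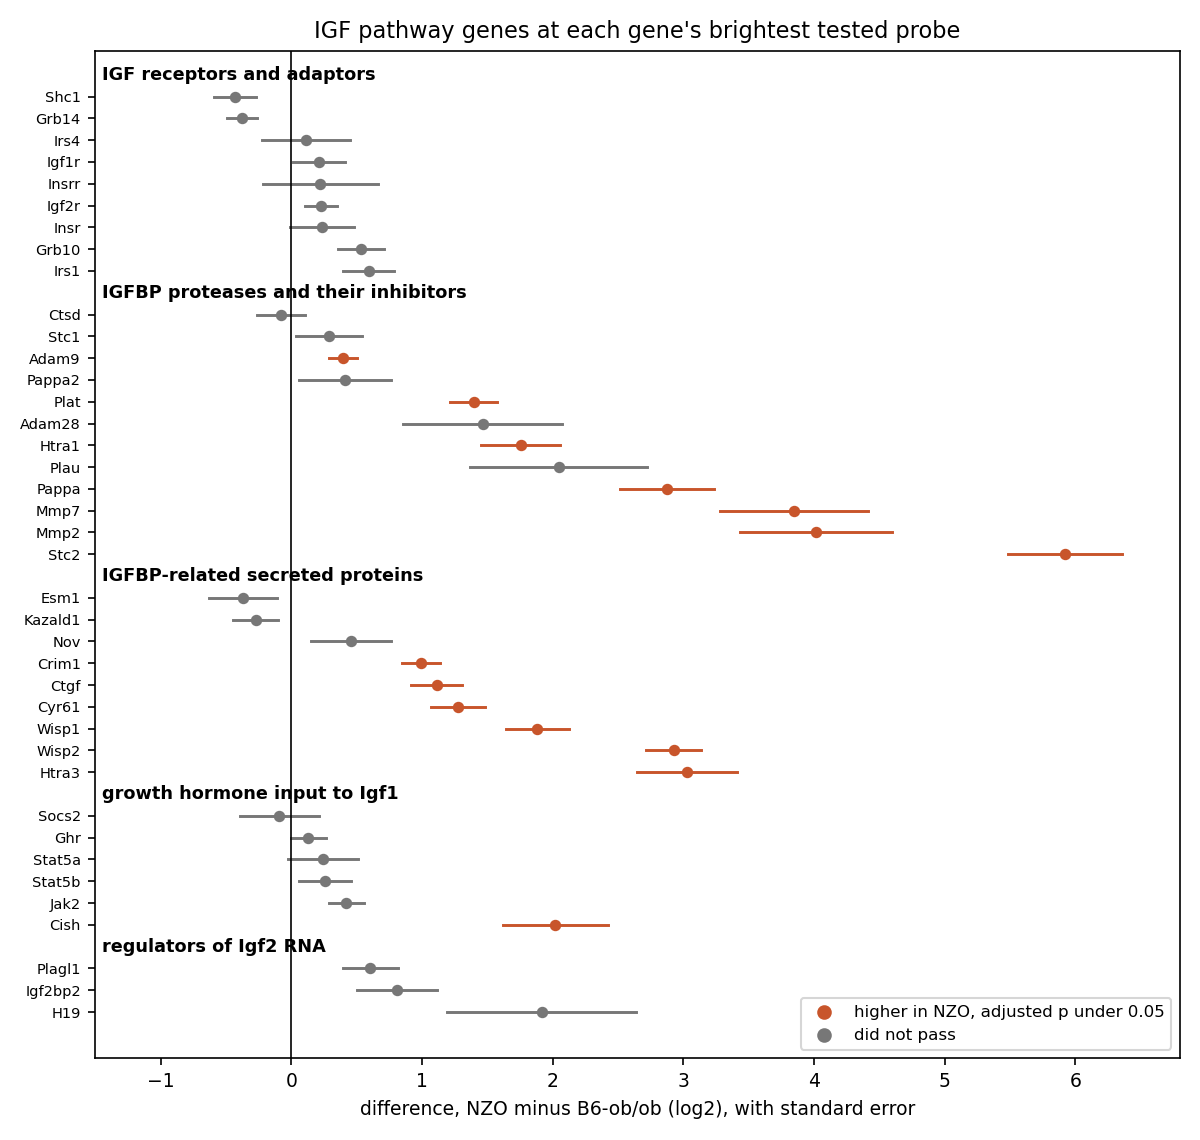
Difference in level, NZO minus B6-ob/ob on the log2 scale with its standard error, of the tested genes of 5 lists, each at its brightest tested probe. The receptors and adaptors lie between -0.43 and 0.59, while the called binding protein proteases and inhibitors reach 5.92 for Stc2, measured on 1 B6-ob/ob array.

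The genes whose level moved most like that of a member over the 6 arrays were sought among 11656 named genes well above background on all arrays. The r values describe 6 arrays and are high wherever a gene shares the strain difference. They are also the highest among 11656 genes, a choice that by itself favours high values. An r above 0.99 was reached by 78 genes for Igf1 and by 101 for Igfbp5. For Igf1 the first were Clps, which encodes pancreatic colipase, and Ptrf, a caveolar protein, at a Pearson's r of 0.9985 and 0.9983. For Igfbp5 they were Ssbp4 and Ebf3 (0.9997 and 0.9991), and for Igfbp4 Gjc1 and Ctgf (0.998 and 0.9949). For Igfbp7 they were Slc22a2 and Myct1 (0.9971 and 0.9965), and for Igfals Ggt7 and Tmem68 (0.9976 and 0.9952). For Igfbp3 they were Mlec and Polr1d (0.9953 and 0.9935). Igf2 had the lowest first values, Prnd at 0.9477 and Zfp37 at 0.9471.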

How the data were processed

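RNA of 6 islet samples was hybridised to Agilent arrays of design 014868, 1 colour (Cy3) and 1 array a sample, per the labels and file headers. The deposited scanner files hold linear spot intensities from Agilent Feature Extraction 10.5.1.1, detrended within the array with local background correction off, per the file headers. The submitters' processing notes name version 9.1. The authors' value table, of linear intensities by a method not given in the sources used here, served as an alternative, with each column given the strain of the array it follows. By its own labels every sign turns.

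Flagged spots were left out, log2 signals of repeated spots averaged, and the 75th percentile of the 41174 non-control probes subtracted on each array. Strains were compared with limma 3.58.1 (lmFit, eBayes) in R 4.3.3 over 24628 probes, two-sided. The functions were tested on simulated data. The members, lists and tests were chosen with earlier results of these data known. Named were all member probes, called list members, Igf1r, Igf2r, Insr, Irs1, Irs2, Pappa, Ghr and H19, and the 2 most similar genes of each member measured on all 6 arrays. Other list genes were named after their values were seen. Alternatives covered background, scaling, filter, value table, slide, prior variance, array weights, 1 probe a gene and each array left out.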

Additional observations from a re-analysis of the deposited data

How the results depend on the processing

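Igf1, Igfbp2, Igfbp4, Igfbp5 and Igfals kept their call and direction at every tested probe under each alternative that could be fitted, and Igfbp6 under 15 of 16. The number of member probes that were higher, 7, was 3 where only probes well above background on all 6 arrays were kept, and 6 to 8 with each array left out. With no filter on dim probes it was 9, the added probes being Igf1 A_52_P351116 (2.54, limma adjusted p = 0.00318) and Igfbp5 A_51_P204153 (1.93, adjusted p = 0.00132), whose dim arrays give no reliable size. Some small differences that passed under no alternative changed sign, while that of the Igfbp3 probe A_51_P228472 stayed between -0.421 and -0.092. The Igf2 probe A_51_P516826 was at -0.034 with slide as a fixed block. The Igf2 probe A_51_P516833 was at -0.038 under quantile normalisation, -0.067 under median scaling, -0.017 under normexp, -0.25 and -0.006 with slide as a fixed and as a random block, and -0.19 to 0.21 with each array left out. The Igfbp3 probe A_52_P253179 was at 0.002 under quantile normalisation, 0.006 in the value table and -0.076 to 0.041 with each array left out, and A_52_P851352 at -0.76 to 0.39. The causes were not tested.

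Over all probes, 2840 higher and 2536 lower became 4909 and 5521 with array weights, and 1664 to 2869 and 1150 to 2483 with each array left out. The number lower was 1584 with slide as a fixed block and 1478 with 1 probe a gene, where fewer features are tested. Of receptors and adaptors 2 were higher with array weights, 0 to 1 with each array left out, and 1 was lower under median scaling, normexp, the trended robust prior and array weights. Of proteases and inhibitors 3 were higher, in place of 7, among probes above background on all arrays. Of growth hormone pathway genes 0 were higher with slide as a fixed block, 2 with the trended robust prior or array weights, and 0 to 1 with each array left out. Of regulators of Igf2 RNA 3 were higher with array weights and 0 to 2 with each array left out. No paired analysis was possible because the strains share no replicate number, and slide served as the block instead. Dim B6-ob/ob signals limit the size of the Igfbp2, Igfbp6, Pappa, Wisp2, Stc2, Mmp2, Mmp7 and H19 differences. The sizes at the Igf1 and Igfbp4 probes, also dim in B6-ob/ob, depended on the background correction as given above.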
